A study of Mus musculus with 10 samples.

Results

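Among 10 RNA-seq libraries of mouse esophageal epithelium, the clock output gene Dbp spanned 0.38 to 22.6 FPKM, and 2 classes were chosen by this Dbp value, 5 libraries above 5 FPKM (high Dbp) and 5 below (low Dbp). FPKM divides the fragments of a gene by gene length and by library depth, so levels of different genes can be set side by side. The high class held 3 of the 5 wild-type libraries (WT1, WT2 and WT4) and 2 of the 5 knockout libraries (KO1 and KO2), and the low class held WT3, WT5, KO3, KO4 and KO5, so that all 10 libraries of the series belong to a class. The value just inside the threshold was 8.45 FPKM (KO2) and the value just outside it was 1.73 FPKM (WT5). The classes were cut from the measurements and are no labelled condition, and the hour at which tissue was collected is not given in the sources used here. An adjusted p below therefore measures how closely a gene followed this division of the libraries, and Dbp, with its fellow markers Nr1d1, Per3 and Tef, is described without a test.

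The knockout genotype was p63CreERT2;Mst1 loxp/loxp;Mst2-/-, in which a tamoxifen-activated Cre named for p63, a transcription factor of basal epithelial cells, acts on floxed Mst1 and Mst2 is null. Tamoxifen was given to both genotypes at 100 mg/kg in 3 doses, 2 weeks apart, and the epithelium, freed of mesenchyme with the protease Dispase, was lysed for RNA at about 8 weeks. The labels give no ages and do not tie libraries to single mice, so the spread behind each p-value may be partly technical. Stk3, the gene of Mst2, read 2.08 to 3.48 FPKM in wild type and 0.05 to 0.25 FPKM in knockout, while Stk4, the gene of Mst1, read 17.0 to 22.7 and 12.2 to 17.4 FPKM, a level over the whole gene that cannot show a deletion of single exons. The esophageal keratins were abundant in both classes, with Krt5 at 1854 ± 502 FPKM in high and 2091 ± 526 FPKM in low libraries (SD, n = 5 and 5).

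The circadian clock of mammalian cells is a transcriptional loop. Clock and Arntl (also called Bmal1) activate genes through E-box sequences, among them the Per and Cry repressors, the nuclear receptors Nr1d1 and Nr1d2, and the output factors Dbp, Tef and Hlf, which bind D-boxes. Nr1d1 and Nr1d2 repress genes with ROR elements, such as Arntl, Nfil3 and Cry1, so that in a rhythmic tissue these peak at other hours than Dbp. In stratified epithelia the clock is known to time DNA synthesis and division of basal cells.

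Values are given below in the order WT1, WT2, WT4, KO1 and KO2 for the high class and WT3, WT5, KO3, KO4 and KO5 for the low class. Dbp itself, a bZIP activator, read 22.6, 12.04, 16.4, 14.5 and 8.45 FPKM in the high libraries and 1.25, 1.73, 0.84, 0.56 and 0.38 FPKM in the low ones. The mean was 14.8 ± 5.28 against 0.952 ± 0.545 FPKM (SD, n = 5 and 5), a ratio of 15.5. At the low end the KO5 value rests on about 17 fragments, and the WT1 value on about 1021. Part of the Dbp model, 539 of 2993 bases, overlaps Sphk2 on the opposite strand, and Sphk2 itself read 11.5 ± 1.99 and 11.4 ± 1.03 FPKM.

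The other markers of the division followed Dbp in each library class. Nr1d1, the heme-binding repressor REV-ERB alpha, read 52.7, 29.9, 35.6, 30.3 and 26.3 FPKM in high libraries and 13.8, 22.8, 7.01, 10.5 and 4.17 FPKM in low ones. Tef, a bZIP activator related to Dbp, read 33.6, 21.0, 27.6, 23.7 and 20.4 FPKM against 8.28, 13.1, 7.86, 7.25 and 3.61 FPKM. Per3, a period repressor, read 9.21, 5.42, 8.10, 5.75 and 5.14 FPKM against 2.28, 4.13, 1.83, 2.24 and 0.85 FPKM. None of the markers overlapped between classes, and in each of them WT5 was the highest of the low libraries and KO5 the lowest. Nr1d1 shares 263 of 3077 bases with Thra on the opposite strand.

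Outside these markers, 21 core clock genes were tested, and 2 of them were higher and 3 lower in high-Dbp libraries by limma on log2(FPKM + 1) with genotype as covariate (adjusted p under 0.05, for genes that reached 1 FPKM in 5 or more libraries). Over all 11382 genes given a test, 1.25% were higher and 0.835% lower. A log2 difference on this scale is smaller than the true ratio where a gene is low. Bulk RNA cannot tell apart fewer cells of a type and less RNA per cell.

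On the repressor side of the loop, Nr1d2, the paralog of Nr1d1, read 25.3, 23.7, 21.3, 25.1 and 23.9 FPKM in high libraries and 7.17, 10.9, 5.88, 7.04 and 2.77 FPKM in low ones. The high libraries were within 21.3 to 25.3 FPKM of each other, the low ones were more spread, and the classes did not overlap. The log2 difference was 1.70 (SE 0.23, limma adjusted p = 0.0157), with 1.30 in wild type alone and 2.10 in knockout alone. Ciart, a repressor of Clock and Arntl, read 4.37, 3.44, 5.5, 2.98 and 1.72 FPKM against 0.55, 1.18, 0.64, 0.99 and 0.38 FPKM, again without overlap. Its log2 difference was 1.27 (SE 0.18, limma adjusted p = 0.0157), and 0.208 of its 31-base words occur in other genes, which makes its level less certain. Without KO1 the adjusted p of both genes missed the threshold, as did Nr1d2 without KO2 and Ciart without KO5, and over the leave-one-out fits the adjusted p reached 0.0785 and 0.0602.

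Arntl, Cry1 and Nfil3 were on the opposite side. Arntl, the partner of Clock, read 2.59, 2.48, 0.96, 1.80 and 2.33 FPKM in high libraries and 4.71, 4.09, 3.63, 3.50 and 3.50 FPKM in low ones. Each low library lay above each high library, and the log2 difference was -0.73 (SE 0.17, limma adjusted p = 0.0492). Cry1, a cryptochrome repressor, read 2.48, 1.62, 3.20, 1.88 and 1.71 FPKM against 4.53, 3.51, 5.07, 4.53 and 7.73 FPKM, a log2 difference of -0.91 (SE 0.19, limma adjusted p = 0.0394). Nfil3, a bZIP repressor that binds the same D-boxes as Dbp, read 1.51, 0.85, 1.47, 0.38 and 0.98 FPKM against 3.49, 2.76, 1.99, 4.00 and 2.65 FPKM, a log2 difference of -1.03 (SE 0.17, limma adjusted p = 0.0249). All of these classes were separate, and the KO1 value of Nfil3 rests on about 10 fragments. Their calls depended on single libraries: Arntl kept its call in 2 of 10 leave-one-out fits (without WT1 and without WT4), Cry1 in 3 (without WT1, WT4 or WT5) and Nfil3 in 6, losing it without WT3, KO1, KO2 or KO5.

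The remaining clock genes did not pass the test. Per1 read 6.56, 4.46, 8.18, 4.48 and 5.19 FPKM against 2.46, 3.79, 4.33, 3.54 and 3.04 FPKM, without overlap, and missed the threshold (log2 difference 0.58, SE 0.17, limma adjusted p = 0.0867). Per2, its paralog, showed a log2 difference of 0.94 in wild type and -0.32 in knockout, where the low libraries KO3 and KO5 had 3.47 and 3.91 FPKM (0.31 over both genotypes, SE 0.32, limma adjusted p = 0.565). For Cry2 the log2 difference was 0.52 (limma adjusted p = 0.0803), and for Hlf, the third D-box activator, 0.72 (limma adjusted p = 0.109). The activator Clock differed by -0.16 (limma adjusted p = 0.475) and its paralog Npas2 by -0.30 (limma adjusted p = 0.186). Bhlhe41, an E-box repressor, was below the expression filter and had no test, and it read 0.52 to 1.45 FPKM in high and 0.09 to 0.20 FPKM in low libraries. Over all 21 tested clock genes the median log2 difference was -0.06, beside 0.09 for all genes, since members of both signs were present.

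**Figure D1:**
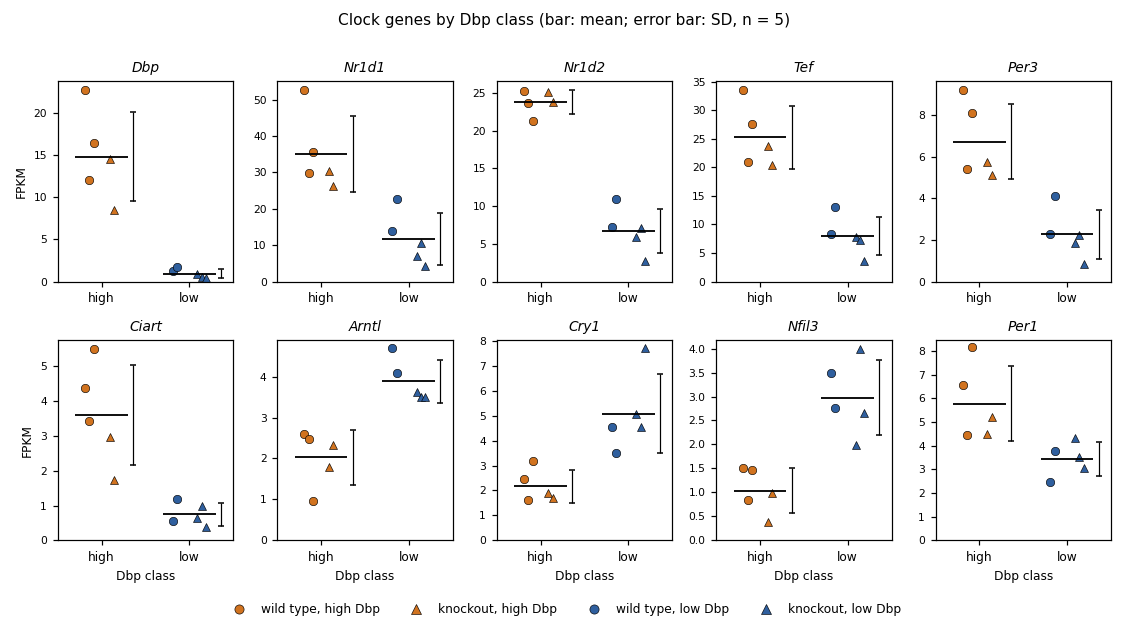
FPKM of 10 clock genes in each library, with high-Dbp libraries left and low-Dbp libraries right in each panel, circles for wild type and triangles for knockout, a bar at the class mean and the SD as error bar (n = 5 per class). Dbp, Nr1d1, Nr1d2, Tef, Per3, Ciart and Per1 have every high library above every low one, and Arntl, Cry1 and Nfil3 have every high library below. The separation of Dbp was fixed by the division itself.

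Promoter letters are shown for some of the clock genes whose classes did not overlap, to place the elements of the known loop beside the values. The windows of Per1, Nampt and Bhlhe41, which also had separate classes, hold matches too and are not printed. The windows come from RefSeq (GRCm38.p6), which is a later build than the mm9 named for the expression data, and 30 clock and output genes were matched to 43 promoters. The search covered the 250 bases before each start. Searched on both strands were the E-box CACGTG, which 6.02% of 32851 mouse promoters of the same length hold, its variant CACGTT (3.85%), the D-box TTATGTAA (0.819%) and its form TTACGTAA (0.113%), and the ROR element AGGTCA (14.0%). Capitals mark a match, read 5′ to 3′ along the gene's strand. Motif matches are descriptions of these windows and not measured binding.
Ciart (chr3:95882247-95882364, minus strand, 19 to 136 bases before the start, E-boxes): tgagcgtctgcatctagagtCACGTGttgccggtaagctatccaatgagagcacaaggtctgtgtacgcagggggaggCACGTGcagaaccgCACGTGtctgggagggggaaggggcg
Per3 (chr4:151044796-151044890, minus strand, 131 to 225 bases before the start, D-boxes): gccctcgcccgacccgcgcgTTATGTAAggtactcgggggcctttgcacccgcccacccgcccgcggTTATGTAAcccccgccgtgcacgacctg
Tef (chr15:81802526-81802571, plus strand, 102 to 147 bases before the first start, E-box): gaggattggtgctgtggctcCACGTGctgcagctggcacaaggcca
Tef (chr15:81811256-81811301, plus strand, 113 to 158 bases before the second start, E-box): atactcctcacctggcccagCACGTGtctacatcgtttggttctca
Nr1d1 (chr11:98775380-98775425, minus strand, 3 to 48 bases before the start, E-box variant on the opposite strand): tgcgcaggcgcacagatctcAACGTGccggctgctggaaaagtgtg
Nr1d2 (chr14:18239158-18239203, minus strand, 52 to 97 bases before the start, ROR element): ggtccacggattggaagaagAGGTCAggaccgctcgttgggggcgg
Cry1 (chr10:85185089-85185153, minus strand, 35 to 99 bases before the start, E-box variant on the opposite strand and E-box): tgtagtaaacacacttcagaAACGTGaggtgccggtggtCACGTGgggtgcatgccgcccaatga
Nfil3 (chr13:52981040-52981071, minus strand, 1 to 32 bases before the start, ROR element on the opposite strand): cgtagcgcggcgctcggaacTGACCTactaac

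Ciart was the single member with 3 E-boxes in its window, and Per3 the single one with 2 D-boxes. Members are counted here as genes over all their promoters, whereas the percentages above are per promoter, so the 2 are not on the same footing. Of the 30 matched members, 7 held an E-box (Ciart, Tef, Cry1, Per1, Bhlhe41, Lonrf3 and Tspan4), 4 its variant (Nr1d1, Cry1, Cry2 and Rorb), 2 a D-box (Per3 and Timeless), 0 its form TTACGTAA and 5 a ROR element (Nr1d2, Nfil3, Per1, Nampt and Clock). E-boxes and ROR elements were thus found both in genes higher with Dbp and in genes lower with it. The searched windows of Dbp and Arntl held none of these letters, which says nothing of elements outside them.

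Of 7 tested genes that cycle in many tissues, 1 passed, beside 2.08% of all tested genes. Nampt, the enzyme that limits NAD salvage, read 18.3, 17.5, 16.8, 23.8 and 22.2 FPKM in high libraries and 12.3, 12.9, 12.7, 12.5 and 12.3 FPKM in low ones. The low class was narrow, at 12.6 ± 0.251 FPKM (SD, n = 5), and the high libraries were all above it, with a log2 difference of 0.64 (SE 0.10, limma adjusted p = 0.0157). This call was lost without KO1, KO2 or KO5. Tsc22d3, a glucocorticoid-induced leucine zipper protein, differed by 0.86 (limma adjusted p = 0.0803), Wee1, a kinase that holds back mitosis, by 0.42 (limma adjusted p = 0.12), and Usp2, a deubiquitinase, by -0.60 (limma adjusted p = 0.265). Usp2 was -1.19 in knockout and -0.00 in wild type.

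Across all genes, 142 were higher and 95 were lower in high-Dbp libraries, and 2.08% of those tested passed in either direction. Of these 237 genes, 145 had classes that did not overlap, beside 3.19% of all tested genes with every high library above every low one and 0.984% with every high library below. With a further rescaling of each library to a common median ratio, 52 genes were higher and 164 lower, so that 24.1% rather than 59.9% of calls were on the higher side. Quantile normalization gave 90 higher and 153 lower, or 37.0% higher. Without the expression filter 27595 genes were tested and 0 passed (3568 at an unadjusted p under 0.05), and without the genotype term 9 higher and 2 lower genes passed.

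Each library carried weight in these counts. Without KO2, 6 higher and 0 lower genes passed (1854 genes at an unadjusted p under 0.05). Without KO1 the counts were 3 and 3, without KO5 7 and 2, without WT3 28 and 14, and without KO3 42 and 23. Leaving out WT2 gave 68 and 39, leaving out WT5 70 and 61, and leaving out KO4 80 and 70. The counts were larger without WT1, at 462 and 232, and without WT4, at 195 and 168. Of 43 named genes that passed, all 43 had the same direction in every leave-one-out fit. That shared direction was largely set beforehand and is no separate evidence of stability. The genes were taken because they passed with all libraries, and each such fit reuses most of those libraries. Of the 43, only 2, Ccnd2 and Foxe1, also passed in every leave-one-out fit.

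Ccnd2, which encodes cyclin D2, read 22.9, 24.5, 25.4, 17.4 and 15.0 FPKM in high libraries and 7.89, 6.95, 6.69, 9.31 and 7.78 FPKM in low ones. The low class was narrow, the classes were separate, and the log2 difference was 1.27 (SE 0.14, limma adjusted p = 0.00806, 0.0035 to 0.0316 on leaving out a library). Foxe1, a forkhead factor of foregut-derived epithelium, read 12.7, 11.6, 13.5, 5.43 and 6.68 FPKM against 5.10, 5.31, 1.77, 1.81 and 3.29 FPKM. The classes were separate, knockout libraries were below wild-type ones within each, and the log2 difference was 1.13 in wild type and 1.13 in knockout (limma adjusted p = 0.0101, 0.00131 to 0.0382 on leaving out a library).

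Among other genes with the largest differences on the higher side was Cyp2a5, a cytochrome P450 that is a known target of Dbp in liver. It read 81.3, 76.2, 39.0, 1.22 and 2.35 FPKM in high libraries and 3.65, 10.5, 0.14, 0.14 and 0.16 FPKM in low ones. The high libraries were above the low ones within each genotype, while wild-type low libraries exceeded knockout high ones, and the log2 difference was 2.18 (SE 0.41, limma adjusted p = 0.0389). A share of 0.546 of its 31-base words occurs in other genes, so reads could belong to a related P450 gene. Cbr2, a carbonyl reductase, read 102, 184, 53.1, 209 and 142 FPKM against 36.7, 32.2, 60.1, 68.4 and 55.0 FPKM, with WT4 inside the range of the low class (log2 difference 1.5, SE 0.28, limma adjusted p = 0.0332). Klf9, a zinc finger factor induced by glucocorticoids and by the clock, read 7.52, 6.89, 5.66, 3.64 and 4.11 FPKM against 2.12, 3.21, 2.37, 2.08 and 1.77 FPKM, without overlap (log2 difference 0.87, SE 0.13, limma adjusted p = 0.0157). The rest of the 12 were Fam3d (1.21), Dpp4 (1.21), Sptssb (0.88), Cox7a2l (0.82) and Cldn8 (0.80), with Dst and Krt15 described below, given as log2 differences with limma adjusted p of 0.0332 to 0.0472. Cyp2a5, Dpp4, Sptssb, Cox7a2l and Cldn8 each lost the call without any of WT2, WT3, WT5 and KO1 to KO5, and Cbr2 without WT3, WT5, KO1, KO2, KO3 or KO5. Fam3d lost it without WT2, WT3 or any of KO1 to KO5, and Klf9 without KO1, KO2 or KO5.

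Among the 12 genes named on the lower side, which passed, averaged 5 FPKM or more in the low class and are neither predicted genes nor pseudogenes, the largest difference was in Degs2, which makes phytoceramides of the epidermal barrier. It read 2.72, 2.57, 3.71, 0.41 and 0.49 FPKM in high libraries and 7.50, 10.8, 15.7, 11.8 and 5.06 FPKM in low ones. Classes were separate, and the log2 difference was -2.12 (SE 0.36, limma adjusted p = 0.0314), with -1.34 in wild type and -2.91 in knockout. Kctd11, an adaptor for protein ubiquitination, read 62.0, 48.2, 50.0, 48.4 and 59.3 FPKM against 113, 74.9, 118, 123 and 176 FPKM (log2 difference -1.06, SE 0.18, limma adjusted p = 0.0249). Il36rn, the antagonist of the IL-36 receptor, differed by -1.27 (SE 0.18, limma adjusted p = 0.0157), and the cytokine Il36a by -1.06 (SE 0.22, limma adjusted p = 0.0397). Il36a read 198, 299, 247, 176 and 242 FPKM against 560, 302, 614, 417 and 605 FPKM, with WT5 barely above WT2. Others of the 12 were Egr3 (-1.13), Asb2 (-1.05) and Castor2 (-1.04), with limma adjusted p of 0.0324 to 0.0352, and Cdsn, Sprr1b, Pbk, Cdc20 and Plk1, described with their groups. Degs2 and Il36rn lost the call without KO1, KO2 or KO5, Kctd11 also without WT3, and Il36a without WT3 or any of KO1 to KO5. Egr3 lost it without WT2, WT3 or any of KO1 to KO5, Asb2 in those cases and without WT5, and Castor2 without WT2, WT3, KO1, KO2, KO3 or KO5.

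**Figure D2:**
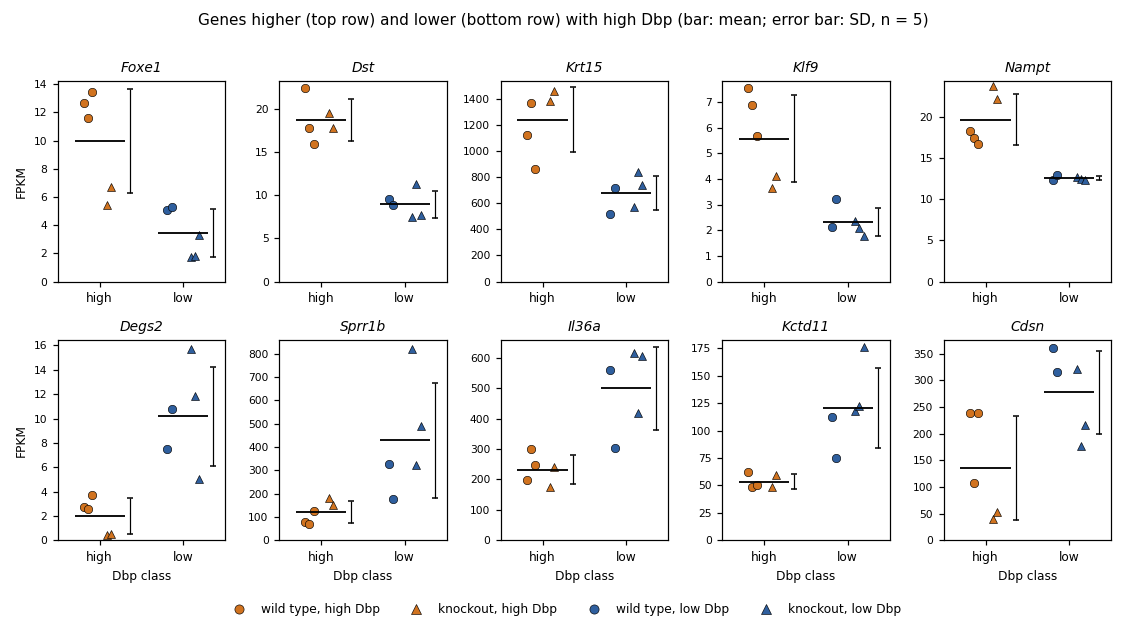
FPKM of 5 genes higher (top row) and 5 lower (bottom row) with high Dbp in each library, with circles for wild type, triangles for knockout, a bar at the class mean and the SD as error bar (n = 5 per class). Foxe1, Dst, Krt15, Klf9 and Nampt are separated between classes, as are Degs2, Il36a and Kctd11, whereas Sprr1b and Cdsn overlap.

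Genes of mitosis were lower in high-Dbp libraries. Of 32 tested members, 15 passed on the lower side and 0 on the higher side, beside 0.835% and 1.25% of all tested genes. A negative difference was found in 31, beside 3874 of all 11382 tested genes, with a median of -0.72 beside 0.09 for all genes. In 13 of the 32 every high library was below every low one, beside 0.984% of all tested genes. The median was -0.82 in wild type alone, where 32 of 32 were negative, and -0.65 in knockout alone, where 31 were.

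Mki67, the proliferation antigen Ki-67, read 6.33, 9.61, 9.04, 14.4 and 8.88 FPKM in high libraries and 18.7, 14.9, 22.4, 19.0 and 19.4 FPKM in low ones. KO1 was the highest of its class and lay just below WT5, the lowest of the other class, and the log2 difference was -0.86 (SE 0.15, limma adjusted p = 0.0261). Ccnb2, cyclin B2, read 4.46, 4.92, 6.81, 8.70 and 7.25 FPKM against 14.0, 10.5, 16.6, 10.5 and 16.5 FPKM (log2 difference -0.91, SE 0.16, limma adjusted p = 0.0262). Hmmr, which acts at the spindle, read 1.61, 2.38, 2.20, 3.64 and 2.25 FPKM against 5.60, 4.34, 5.89, 5.53 and 6.55 FPKM (log2 difference -0.90, SE 0.13, limma adjusted p = 0.0157). In Ccnb2 and Hmmr, as in Mki67, no high library reached the lowest of the low libraries. Anln, a scaffold of the cytokinetic ring, differed by -0.86 (limma adjusted p = 0.0249), Plk1, a mitotic kinase, by -1.0 (limma adjusted p = 0.0472) and Cdc20, an activator of the anaphase-promoting complex, by -1.04 (limma adjusted p = 0.0483). Pbk, a mitotic kinase outside the list, differed by -1.07 (limma adjusted p = 0.0465). For Cdc20, 0.267 of the 31-base words occur in other genes, and the same share holds for Kif20a and 0.253 for Ube2c. Bub1b, Kif20a, Tpx2, Ube2c, Nusap1, Prc1, Cdca8, Ndc80 and Racgap1 also passed, while Top2a (-0.92, limma adjusted p = 0.06), Ccnb1 (-0.82, limma adjusted p = 0.0553) and Cdk1 (-0.68, limma adjusted p = 0.0784) did not. The phosphatase Cdc25b alone had a positive difference (0.11, limma adjusted p = 0.684).

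The count of 15 fell to 0 without KO2 or without KO5, to 1 without WT3, to 2 without KO1 or without KO3, to 7 without WT5 and to 8 without WT2. It was 20 without WT1 and without WT4, and 17 without KO4. Of the single genes, Hmmr lost its call without KO2 or KO5, Mki67 without WT3, KO2, KO3 or KO5, Anln without WT3, KO1, KO2 or KO5, and Ccnb2 without WT3, KO1, KO2, KO3 or KO5. Plk1, Cdc20 and Pbk each lost it without WT2, WT3, WT5, KO1, KO2, KO3 or KO5. In all leave-one-out fits 31 members were negative, and the median ran from -0.80 to -0.63. A further fit added as covariate a score, the mean log2(FPKM + 1) of the replication and mitosis genes themselves. The score was 1.49 to 2.60 in high and 2.13 to 2.96 in low libraries. In that fit 0 genes of the whole table passed in either direction (2433 at an unadjusted p under 0.05). Mitosis members were then negative in 31 of 32 (median -0.40), and replication members positive in 31 of 32 (median 0.38). Because the score is built from these members, the fit cannot tell their class difference apart from the score.

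DNA replication genes were measured by 32 tested members, of which 0 passed in either direction, beside 2.08% of all tested genes. In a list of this size, 0 calls is close to that share. A negative difference was found in 21 (median -0.10), beside 3874 of all 11382 tested genes. Rrm2, a subunit of ribonucleotide reductase, read 1.75, 1.40, 5.06, 9.89 and 4.16 FPKM in high libraries and 5.31, 4.35, 18.9, 6.72 and 9.95 FPKM in low ones, and did not pass (log2 difference -0.72, SE 0.34, limma adjusted p = 0.243). Pcna, the sliding clamp, differed by -0.01 (limma adjusted p = 0.977) and Mcm5, of the replicative helicase, by -0.36 (limma adjusted p = 0.563). Within the high class, Rrm2 and Mcm5 were lowest in WT1 and WT2 and highest in KO1. The median of the list was 0.02 without WT1 and without KO2, and -0.22 without WT4 and without KO1. Of 14 tested cell cycle regulators, Ccnd2 alone passed, on the higher side, beside 1.25% of all tested genes higher and 0.835% lower. Cdkn1a, the inhibitor p21, read 103 ± 13.0 FPKM in high and 109 ± 15.2 FPKM in low libraries (SD, n = 5 and 5).

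**Figure D3:**
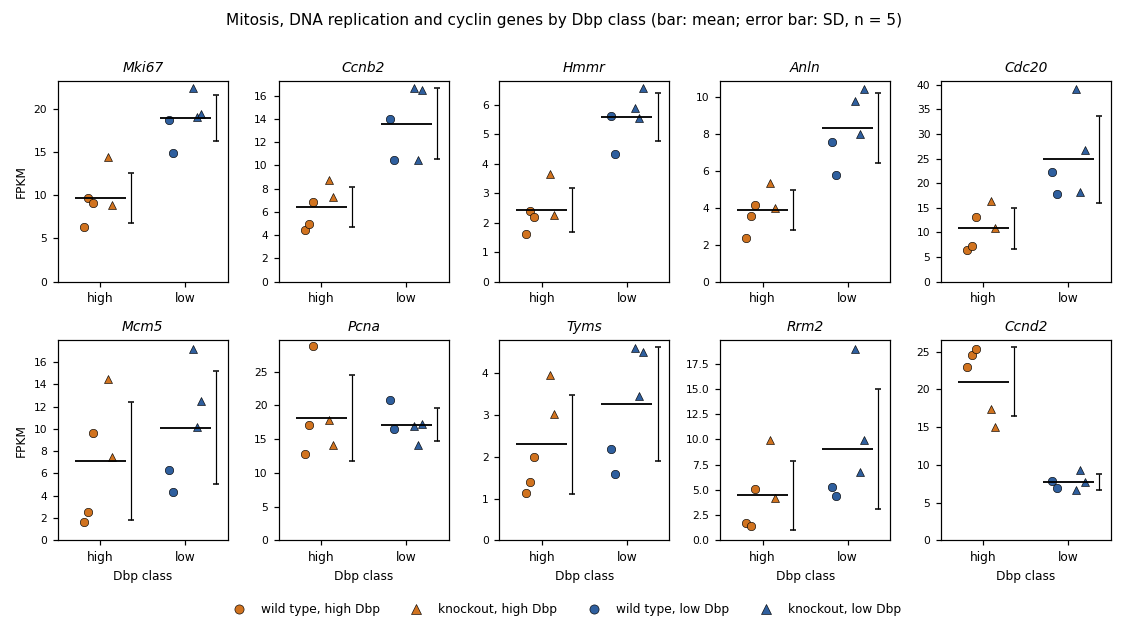
FPKM of mitosis genes (Mki67, Ccnb2, Hmmr, Anln, Cdc20), DNA replication genes (Mcm5, Pcna, Tyms, Rrm2) and the cyclin gene Ccnd2 in each library, with circles for wild type, triangles for knockout, a bar at the class mean and the SD as error bar (n = 5 per class). The mitosis genes have every high library below every low one, the replication genes overlap, and Ccnd2 has every high library above.

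Genes of the basal cell layer and of its attachment were on the higher side in part. Of 17 tested members, 4 were higher and 0 lower in high-Dbp libraries, beside 1.25% and 0.835% of all tested genes. A positive difference was found in 14 (median 0.27), beside 7508 of all 11382 tested genes (median 0.09). With median-ratio scaling 3 members were higher, 12 were positive and the list median was 0.17. Dst, the dystonin that links keratin to hemidesmosomes, read 22.5, 17.8, 15.97, 19.6 and 17.8 FPKM in high libraries and 9.54, 8.83, 7.45, 11.3 and 7.69 FPKM in low ones. Krt15, a basal keratin, read 1119, 1368, 860, 1382 and 1460 FPKM against 515.7, 713.4, 573.7, 837.8 and 736.9 FPKM. Both genes were separate between the classes in both genotypes, and WT4 and KO4 were the values of Krt15 nearest to each other. The log2 difference was 0.98 for Dst (SE 0.13, limma adjusted p = 0.0148) and 0.93 for Krt15 (SE 0.17, limma adjusted p = 0.028). Lama3, a laminin chain, differed by 0.74 (limma adjusted p = 0.0332) and the hemidesmosome collagen Col17a1 by 0.66 (limma adjusted p = 0.0497). Not all basal genes were on that side: Krt14 was at -0.62 (limma adjusted p = 0.298), Krt5 at -0.11 (limma adjusted p = 0.765) and Trp63, the gene of p63, at 0.25 (limma adjusted p = 0.2). The count of 4 was 0 without KO1 or KO2 and 1 without WT3, KO3 or KO5. Dst lost its call without KO1 or KO2, and Krt15 and Lama3 without WT3, KO1, KO2, KO3 or KO5. Col17a1 lost it without WT3, WT4 or any of KO1 to KO5.

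Squamous differentiation genes had 27 tested members, of which 3 were lower and 0 higher, beside 0.835% and 1.25% of all tested genes. Of the 27, 22 were negative (median -0.37), beside 3874 of all 11382 tested genes (median 0.09). The other 5 were positive, up to 0.86, without passing, and in wild type alone 9 were positive. Sprr1b, a cornified envelope protein, read 80.3, 69.9, 127, 182 and 151 FPKM in high libraries and 326, 178, 822, 325 and 489 FPKM in low ones. WT5 lay below KO1, so the classes overlapped, and within each genotype they did not (log2 difference -1.52, SE 0.27, limma adjusted p = 0.0304). Cdsn, which joins cells of the cornified layer, read 239, 109, 240, 39.8 and 52.8 FPKM against 360, 315, 321, 177 and 216 FPKM (log2 difference -1.59, SE 0.34, limma adjusted p = 0.0465). Rptn, repetin, differed by -0.86 (limma adjusted p = 0.0498). For the keratins of the suprabasal esophagus the log2 difference was -0.14 in Krt4 (SE 0.13, limma adjusted p = 0.514), and Krt13 read 36720 ± 1972 FPKM in high and 36690 ± 1660 FPKM in low libraries (SD, n = 5 and 5). Krtdap was at -0.01 (limma adjusted p = 0.975). The count of 3 was 0 without WT2, WT3, KO1, KO2 or KO5, 1 without WT5, KO3 or KO4, 2 without WT4 and 5 without WT1. Sprr1b lost its call without WT2, WT3, KO1, KO2 or KO5, Cdsn without WT2, WT3, WT5 or any of KO1 to KO5, and Rptn in every case but without WT1. The list median was -0.20 in wild type and -0.62 in knockout.

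Epithelial cytokines and alarmins had 8 tested members, of which Il36a was lower, beside 0.835% of all tested genes. Of these members 7 were negative (median -0.63), beside 3874 of all 11382 tested genes. S100a8, a calprotectin subunit, read 2.29, 1.65, 37.5, 23.4 and 14.7 FPKM in high libraries and 33.7, 4.29, 463, 100 and 423 FPKM in low ones. Its spread was wide in both classes, and the log2 difference of -2.38 (SE 1.01) did not pass (limma adjusted p = 0.204). Of 20 interferon-induced genes, 8 reached the expression filter. All 8 had a positive difference (median 0.59), beside 7508 of all 11382 tested genes. Among the 8, Usp18, which removes the ubiquitin-like ISG15, alone passed, beside 1.25% of all tested genes on the higher side. With median-ratio scaling or quantile normalization, 0 interferon-induced genes passed. Usp18 read 2.71, 2.52, 1.58, 3.26 and 5.24 FPKM against 1.07, 1.48, 1.60, 1.17 and 1.71 FPKM, with WT4 inside the low range (log2 difference 0.78, SE 0.17, limma adjusted p = 0.0432). It lost the call without WT2, WT3 or any of KO1 to KO5.

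Several lists of other responses held at most 1 call in each direction per list, beside 1.25% higher and 0.835% lower over all tested genes. In lists of this size 1 call is already above these shares. None of 19 heat shock genes passed in either direction (median 0.08), and neither did the cold-induced Cirbp and Rbm3. Of 12 glucocorticoid-induced genes, Klf9 was higher and Nfkbia, the NF-kappa-B inhibitor, lower (-0.53, limma adjusted p = 0.0465). Of the 12, 8 were positive and 4 negative (median 0.17). Per1, Tsc22d3 and Ddit4 were positive without passing (limma adjusted p of 0.0867, 0.0803 and 0.0881). None of 29 sterol and fatty acid synthesis genes, 14 fasting-induced genes and 22 ribosome biogenesis genes passed, with medians of -0.10, 0.10 and 0.15. Txnip, a glucose-responsive gene on the fasting list, read 70.7, 78.2, 71.8, 55.1 and 75.4 FPKM against 39.4, 35.7, 18.2, 49.9 and 16.3 FPKM, without overlap, and missed the threshold (log2 difference 1.15, SE 0.27, limma adjusted p = 0.0576). Among 17 immediate early genes Ccn2 was higher (1.19, limma adjusted p = 0.0271) and Egr3 lower. Of 21 endoplasmic reticulum stress genes Ddit3 was higher (0.58, limma adjusted p = 0.0377), and of 16 antioxidant and xenobiotic genes Cyp1b1 was lower (-1.11, limma adjusted p = 0.0394). These 4 calls were lost without WT2, WT3, KO2, KO3 or KO5, those of Ccn2, Ddit3 and Cyp1b1 also without WT5, those of Egr3, Ddit3 and Cyp1b1 without KO1, and those of Egr3 and Cyp1b1 without KO4. Nfkbia lost its call without WT2, WT3, WT5 or any of KO1 to KO5.

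**Figure D4:**
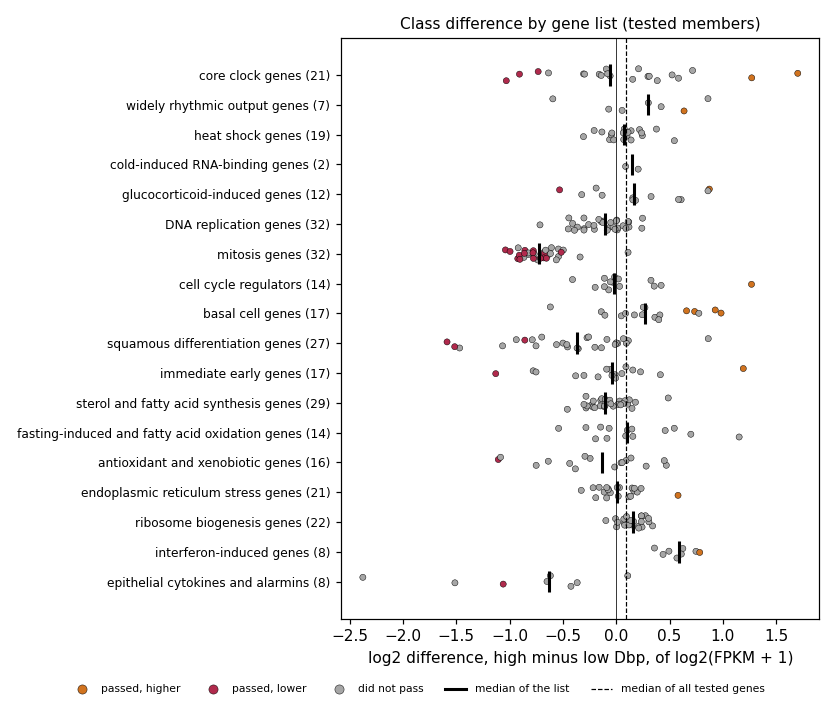
Log2 difference between high-Dbp and low-Dbp libraries, on log2(FPKM + 1), for each tested member of 18 gene lists (number of tested members in brackets, without the marker genes), with orange for genes that passed on the higher side, red for those on the lower side and grey for the others. The thick line is the list's median and the dashed line the median of all tested genes, 0.09; the mitosis genes lie almost wholly to the left, and the interferon-induced genes to the right.

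Markers of other cells were compared with the classes. The summed FPKM of 9 fibroblast genes was 3.12 to 16.5 in high and 3.42 to 16.6 in low libraries, that of 9 myeloid and Langerhans cell genes 9.66 to 37.2 and 16.6 to 48.0, and that of 4 neutrophil genes 1.43 to 8.48 and 1.35 to 6.56. Endothelial genes summed to at most 0.24 and 0.35 FPKM, and T cell genes to at most 1.70 and 0.83 FPKM. None of the tested members of any such list passed the test, beside 2.08% of all tested genes. The 3 tested myeloid and Langerhans cell genes were all negative, with a median of -0.69 (-0.71 in wild type and -0.68 in knockout). Over all tested genes 3874 of 11382 were negative. The share of summed FPKM from mitochondrial genes was 7.23 to 10.0% in high and 6.08 to 8.72% in low libraries, and its part in the differences was not tested. Depth, recovered from the spacing of low FPKM values, was about 13062000 to 16439500 fragments per library, with both ends of this range in different classes.

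The class difference was also taken within wild type alone (3 against 2 libraries) and within knockout alone (2 against 3), which share no library. Of all tested genes, 74.5% had the same sign in both, and the correlation of the log2 differences across genes was 0.524, where genes are not independent replicates. The median over all tested genes was positive in both, 0.07 in wild type and 0.10 in knockout, which by itself favours a shared sign. In wild type 480 genes had separate classes and a difference of at least 0.5 on the log2 scale, and in knockout 1392 did. Of these, 211 were in both with the same direction, 44.0% of the wild-type list and 15.2% of the knockout list, and 6 with the opposite direction. The overlap to be expected of unrelated lists was not estimated. On the second principal component of log2(FPKM + 1), which held 19.6% of the variance, the high libraries lay at -3.52 to 26.4 and the low ones at -18.0 to -10.3. Nr1d2 differed by 1.30 in wild type and 2.10 in knockout, Ccnd2 by 1.59 and 0.95, and Mki67 by -0.94 and -0.78. The same direction of Dbp in both genotypes, 2.82 and 2.94, was fixed by the division itself.

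A test of the class-by-genotype interaction called 2 genes, or 0.0176% of those tested (339 at an unadjusted p under 0.05). These were Gm11868, which read 0.18, 0.09 and 0.05 FPKM in high and 5.59 and 4.73 FPKM in low wild-type libraries and 10.2 to 12 FPKM in every knockout library, and Rps13-ps2, a pseudogene whose 31-base words all occur in other genes. Gm11868 is also annotated as a processed pseudogene, and 0.579 of its 31-base words occur in other genes. Whether the assignment of reads shaped the levels of either gene was not tested. Leaving out WT1, WT2, KO2, KO3 or KO5 left 1 such gene, and leaving out WT4, WT5 or KO1 gave 5, 8 and 5. Of the clock, mitosis and basal genes named here, none passed the interaction test.

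**Figure D5:**
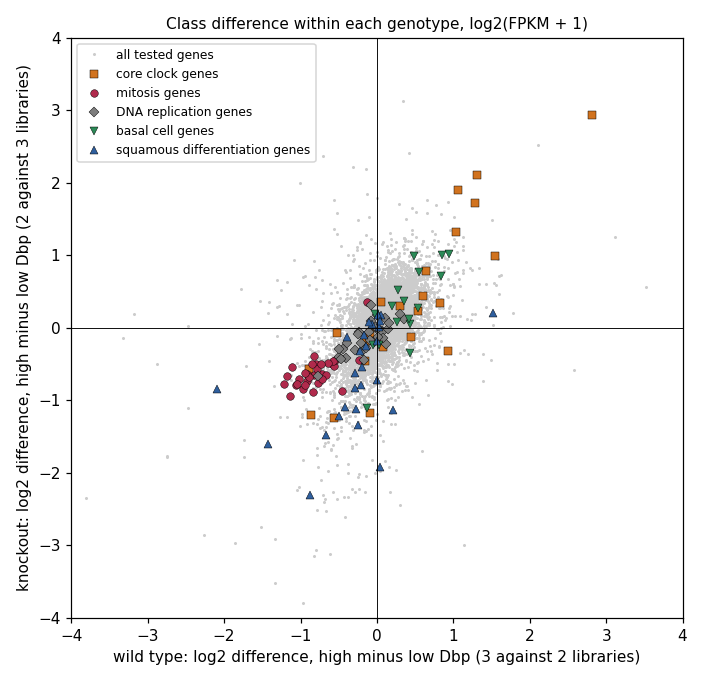
Log2 difference between high-Dbp and low-Dbp libraries in wild type (horizontal axis) against knockout (vertical axis), on log2(FPKM + 1), for all tested genes (grey dots) and 5 gene lists (coloured symbols); 5 genes lie outside the axes. Mitosis genes gather below and left of the origin, basal genes are mostly above and right of it, and clock genes lie in both quadrants. The clock genes drawn include Dbp, whose place was fixed by the division, and its fellow markers Nr1d1, Per3 and Tef, which are described without a test.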

How the data were processed

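RNA-seq of 10 libraries was deposited by the authors as 1 table of FPKM values (56691 genes, 2 decimals), made with cutadapt, HISAT2 2.0.1, HTSeq 0.6.1 and build mm9 per the submitters' processing notes. Settings, annotation and strand handling are not stated there. Classes were set by Dbp above 5 FPKM. The classes, markers and gene lists were chosen with earlier results of these data known. Genes that reached 1 FPKM in 5 or more libraries (11386, of which the 4 markers are only described) were fitted with limma 3.58.1 in R 4.3.3 on log2(FPKM + 1) with class and genotype, robust, intensity-trended empirical Bayes variances and p-values adjusted by Benjamini-Hochberg. The interaction used the same model with a class-by-genotype term. The fit was tested on simulated data. Named were the clock and output genes, the 12 largest called differences per direction with the same direction in both genotypes whose higher class averaged 5 FPKM or more (predicted genes and pseudogenes left out), no more than 5 members of each further list, taken in order of p, and the highest-expressed gene of each other-cell list. Other list members were named after their values were seen, and Stk3, Stk4, Sphk2 and Thra were named as checks. Alternatives changed the pseudocount, filter, scaling, empirical Bayes settings, weights, covariates, threshold and libraries. Fragment totals were recovered from low FPKM values, of which 97.9 to 98.5% were whole fragments within rounding and 0.01 of a fragment, beside 9.26 to 11.0% expected from the tolerance and the rounding of the values alone. Summary tables used Python 3.11.15, and gene models came from GENCODE (GRCm38), in which 52073 of 56691 IDs were found.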

Additional observations from a re-analysis of the deposited data

Results flagged for a closer look

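In 6 of 265 gene and class groups of 5 libraries, 1 library lay far from the other 4, where chance flags about 1 in 20 groups. Bhlhe40, an E-box repressor, was 58.9 FPKM in WT1 and 31.3 to 34.0 FPKM in the other high-Dbp libraries. The deubiquitinase gene Usp2 was 6.13 FPKM in WT5 and 2.33 to 3.35 FPKM in the other low-Dbp libraries. Cyp1b1, a cytochrome P450, was 1.7 FPKM in WT4 and 0.04 to 0.25 FPKM in the other high libraries, although its class difference passed. Ddit3, a stress-induced factor, was 4.19 FPKM in WT4 and 4.6 to 4.74 FPKM in the other high libraries. The antigen presentation gene Cd74 was 28.3 FPKM in WT5 and 9.02 to 14.2 FPKM in the other low libraries. Scgb1a1, an airway secretory gene, was 15.0 FPKM in WT1 and 2.47 to 5.63 FPKM in the other high libraries.

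For 2 genes the class difference itself differed between the genotypes in limma's interaction test. In Gm11868 the log2 difference was -2.48 in wild type and 0.03 in knockout, which differ by 2.50 (SE 0.20, adjusted p = 0.00127). In Rps13-ps2 it was 0.42 in wild type and 2.41 in knockout, which differ by 1.99 (SE 0.23, adjusted p = 0.0213).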

How the results depend on the processing

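Main counts were 142 higher, 95 lower and 2 with an interaction. Higher and lower counts were 0 and 0 without the expression filter and 0 and 0 with a cell cycle score as covariate. They were 52 and 164 with median-ratio scaling, 90 and 153 with quantile normalization, and 985 and 392 with sample quality weights. Without the genotype covariate they were 9 and 2, with Dbp as a continuous log2 value 72 and 51, in wild type alone 1 and 1 and in knockout alone 214 and 176. At an adjusted p of 0.01 they were 1 and 0, and at 0.1 661 and 304. With a filter at 5 FPKM, 100 were higher and 61 lower. Leaving out 1 library gave 3 to 462 higher, 0 to 232 lower and 1 to 8 with an interaction. The interaction count was 0 with a pseudocount of 5 and 25 without the filter. The cause of these changes was not tested. Of the 43 named genes that passed, 36 kept the call with median-ratio scaling, 37 with quantile normalization, 33 with a pseudocount of 0.1 and 40 with one of 5, and 29 with a mesenchymal and muscle score as covariate.

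With the replicate block, 0 genes were higher and 0 lower (1155 at an unadjusted p under 0.05), Cdc20 turned to 0.33 and Plk1 to 0.11, and the other 41 called genes lost the call without turning. The median of the mitosis genes was then -0.18, with 22 of 32 negative, and that of the DNA replication genes turned from -0.10 to 0.94, with 32 of 32 positive. Basal genes had a median of 0.66 and squamous differentiation genes of -0.34. Numbers 1 and 2 are high and 3 and 5 low in both genotypes, and 4 alone splits, so number and class can hardly be told apart. Deviations of same-numbered libraries from their genotype means correlated at 0.06, 0.42, 0.19, -0.24 and 0.11 for numbers 1 to 5, which does not show pairing. The number of libraries, 5 per class, and the low fragment counts of genes such as Dbp, Nfil3 and Bhlhe41 in single libraries limit these results.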
